A study of Mus musculus with 24 samples.

Results

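The genes described here are 40 mouse genes of DNA double-strand break repair, taken by symbol from a fixed list out of the 47643 genes counted in every library. The list was chosen with earlier results of these data known. They fall into 14 genes of break sensing and signalling, 10 of end joining and 16 of homologous recombination. They were followed in 24 RNA libraries of C57BL/6 mouse salivary gland organoids, which are balls of epithelial cells grown in Matrigel from what the labels call salivary gland stem/progenitor cells. Glands received irradiation (IR) or a sham treatment, the labels give 14 or 90 days as the time elapsed, and organoids were taken at passage 1 or passage 2. This gives 8 groups of 3 libraries each: IR and sham at day 14, passage 1, IR and sham at day 14, passage 2, IR and sham at day 90, passage 1, and IR and sham at day 90, passage 2. All groups shared one medium with EGF, FGF2, insulin, dexamethasone and the ROCK inhibitor Y-27632, so the cells compared had left the gland and divided in culture between irradiation and RNA isolation. Neither the radiation dose nor what a replicate is (an animal, a pool or a culture well) is given in the labels. The p-values therefore only set differences between groups against the spread of libraries within a group, and that spread may be technical.

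A double-strand break is first held by the complex of Mre11a, Rad50 and Nbn and signalled by the kinases Atm and Atr, which mark the histone H2ax around it and call in Mdc1, Rnf8, Rnf168 and Trp53bp1. The ends are then either joined directly, with the Ku proteins Xrcc5 and Xrcc6, the kinase Prkdc, and the ligase Lig4 with Xrcc4, or cut back to single strands by Rbbp8 and Exo1, coated with Rpa1 and Rpa2 and copied from the sister chromatid with the help of Brca1, Brca2 and Rad54l. End joining works through most of the cell cycle, while recombination needs a sister chromatid and is tied to S and G2 phase. Most of these proteins are regulated by phosphorylation, recruitment and turnover, none of which an RNA library measures.

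Libraries held 1151608 to 3189466 counts on genes (median 2091529). A gene's level is given in CPM, its count scaled to library size, after TMM scaling. The kit reads only the 3' end of a transcript, so these CPM do not grow with gene length. The noncoding transcript Gm42418 took 11.8% to 29.0% of counts, and in 3 libraries its share lay over 9 percentage points from both other replicates (IR day 14 passage 2 replicate 3, IR day 90 passage 2 replicate 1 and sham day 90 passage 1 replicate 1). At day 90, passage 1, the share was 29.02%, 26.92% and 26.99% in IR against 28.57%, 15.94% and 11.82% in sham. At day 90, passage 2, it was 13.47%, 24.29% and 23.02% in IR against 15.51%, 14.31% and 13.12% in sham. Without the deviating libraries every IR share at day 90 lay above every sham share. A fit without them therefore cannot separate this share from irradiation at day 90. Epithelial markers were present in every library, with a summed level of 3975 to 10549 CPM, and fibroblast, endothelial, immune and neural marker sums did not exceed 3.85, 2.05, 50.5 and 7.69 CPM in any library. The interferon response genes, a list apart from the repair genes, had 19 of 29 tested members called lower in IR over the 4 pairs of groups together. Of all tested genes 4.91% were called lower there. The summed interferon level varied widely within groups, from 241 to 2836 CPM in sham and 295 to 2504 CPM in IR at day 14, passage 2. IR and sham overlapped in this sum there and at day 90, passage 1, and IR lay lower without overlap in the other pairs.

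Levels spanned more than 3 orders of magnitude across the 40 genes, and 32 of them had enough counts to be tested. Rad50, the scaffold of the break-sensing complex, had the highest mean level over the 24 libraries, 164 CPM, followed by the end-joining regulator Rif1 at 146 CPM and the end-resection factor Rbbp8 at 108 CPM. The 13 tested sensing genes had a median level of 30.5 CPM, the 8 tested end-joining genes 10.8 CPM and the 11 tested recombination genes 10.2 CPM. At the low end of the tested genes stood Brat1, an Atm-binding protein, at 4.06 CPM and Dclre1c, the end-joining nuclease Artemis, at 4.31 CPM. The genes with too few counts to test were the Atr partner Atrip, the end-joining factors Nhej1 and Polq, and the recombination genes Palb2, Rad51c, Xrcc2, Xrcc3 and Fanci. Their mean levels were 0.129 to 2.84 CPM, and Atrip had 7 counts in all, with 0 in 18 libraries. A count of 0 in a 3'-end library of this depth limits the level of the counted transcript end and does not show that the gene is off.

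**Figure D1:**
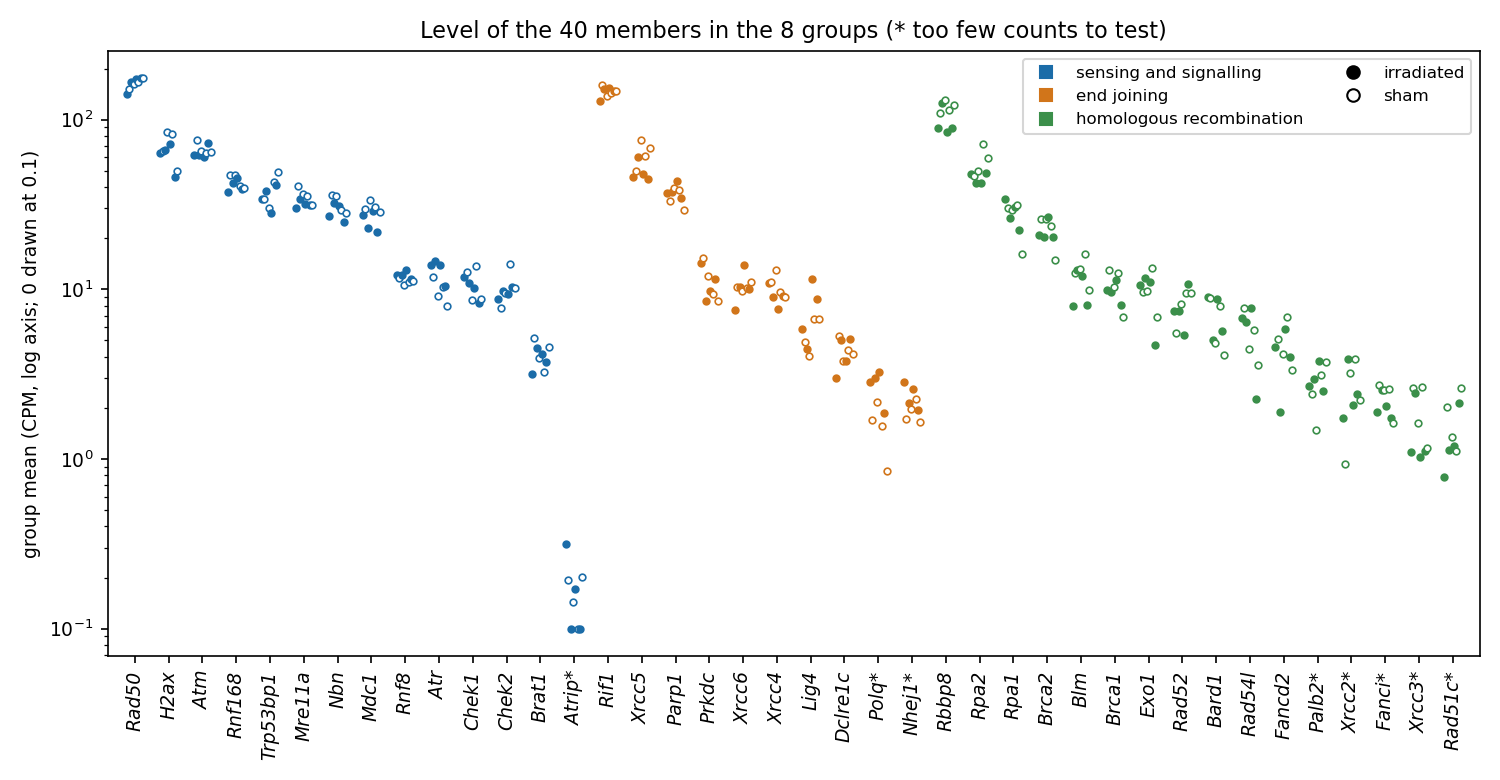
Mean level of each of the 40 genes in each of the 8 groups (CPM, log axis), with filled points for IR and open points for sham, in the order day 14 passage 1 to day 90 passage 2. Rad50, Rif1 and Rbbp8 lie highest in their classes, and the 8 genes marked with an asterisk lie at a mean of 2.84 CPM or less.

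The first comparison set IR against sham within each day and passage. None of the 32 genes was called at an adjusted p under 0.05 in any of the 4 pairs (edgeR quasi-likelihood test with Benjamini-Hochberg adjustment over 10563 genes). Over all genes the share called was 0.341% at day 14, passage 1, 0.0189% at day 14, passage 2, 0.0473% at day 90, passage 1, and 4.92% at day 90, passage 2 and 0 of 32 is close to these shares. At an unadjusted p under 0.05 there were 0, 2, 3 and 2 of the 32 genes in the same order (11%, 6.73%, 12.7% and 18.3% of all genes), and DESeq2 called 0, 0, 0 and 1. These were Fancd2 and Mdc1 at day 14, passage 2, Trp53bp1, Rbbp8 and the annealing protein Rad52 at day 90, passage 1, and Xrcc5 and Rbbp8 at day 90, passage 2, each with a lower fitted value in IR. The median log2 fold change (IR over sham) of the 32 genes was -0.10, -0.07, -0.06 and 0.01, against -0.01, 0.01, 0.00 and 0.01 over all tested genes. All 3 IR libraries lay below all 3 sham libraries for 3, 5, 4 and 3 of the 32 genes (9.38%, 15.6%, 12.5% and 9.38%), against 8.4%, 5.49%, 10.3% and 9.64% of all tested genes. They lay above for 0, 1, 0 and 2 genes (0%, 3.12%, 0% and 6.25%), against 8.84%, 6.06%, 9.21% and 10.9%. The genes above were Trp53bp1 at day 14, passage 2, and Atm and Parp1 at day 90, passage 2; those below were Brat1, Brca1 and Mre11a at day 14, passage 1, Xrcc4, Xrcc5, Nbn, Fancd2 and Mdc1 at day 14, passage 2, Chek2, Rad52, Rbbp8 and Trp53bp1 at day 90, passage 1, and Nbn, Rbbp8 and Trp53bp1 at day 90, passage 2.

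**Figure D2:**
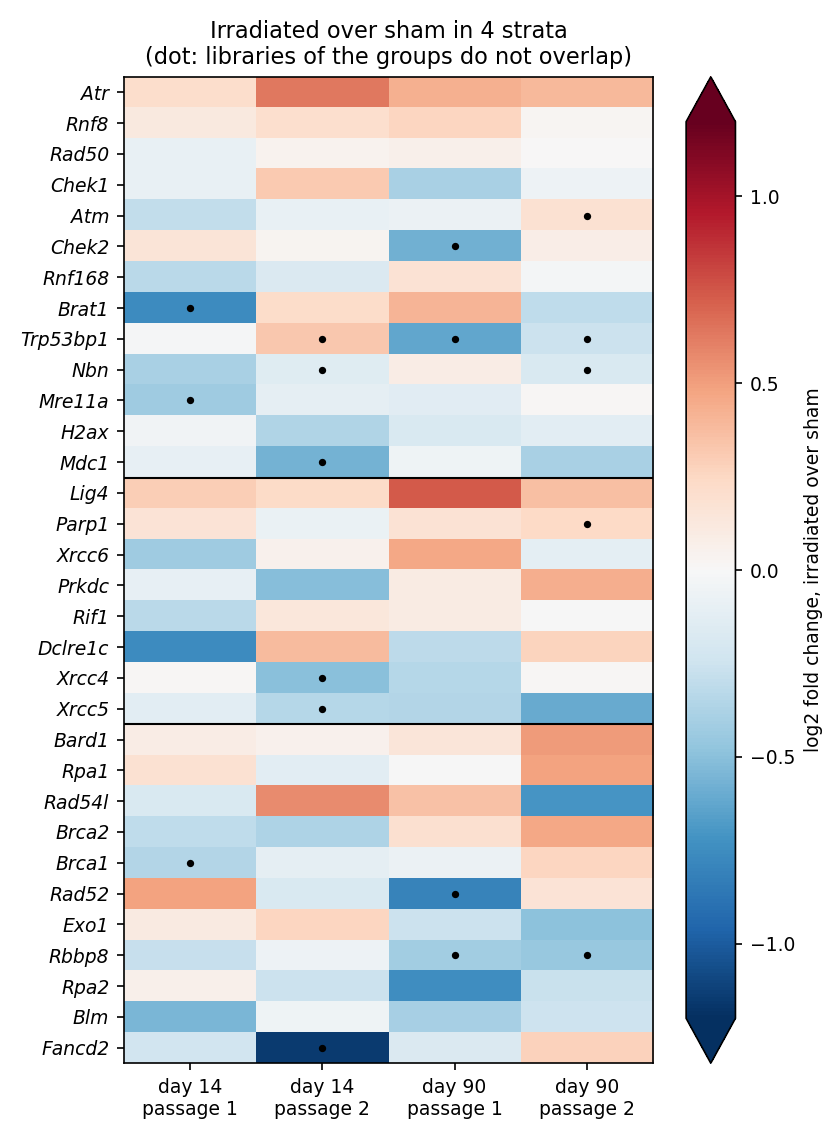
Log2 fold change, IR over sham, of the 32 tested genes (rows, by class: sensing and signalling at the top, end joining in the middle, homologous recombination at the bottom) in the 4 pairs of groups (columns). A dot marks a gene whose 3 IR and 3 sham libraries do not overlap; there are 3, 6, 4 and 5 such genes from left to right.

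The second comparison averaged the 4 IR against sham differences, so that all 24 libraries entered. Here 1 of 32 genes was called, Rbbp8, which was lower in IR, where 11% of all tested genes were called (4.91% called lower). At an unadjusted p under 0.05 there were 4 of 32 (Rbbp8, Xrcc5, Atr and Mdc1), against 25.9% of all genes. The median log2 fold change was -0.08 for the 32 genes, -0.09 for sensing, -0.02 for end joining and -0.08 for recombination, against 0.00 over all genes. The fitted value was higher in IR for 8 and lower for 24 of the 32 genes, against 50.6% and 49.4% of all genes. The 95% interval of this mean effect lay within 1.5-fold either way for 22 of 32 genes (68.8%; 64% of all genes) and within 2-fold for 32 of 32 (88.7% of all genes). A mean shift of 2-fold thus lay outside the interval for each tested repair gene, and one of 1.5-fold in at least 1 direction lay inside it for the other 10. In bulk organoids, fewer cells of a kind and less RNA per cell cannot be told apart.

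**Figure D3:**
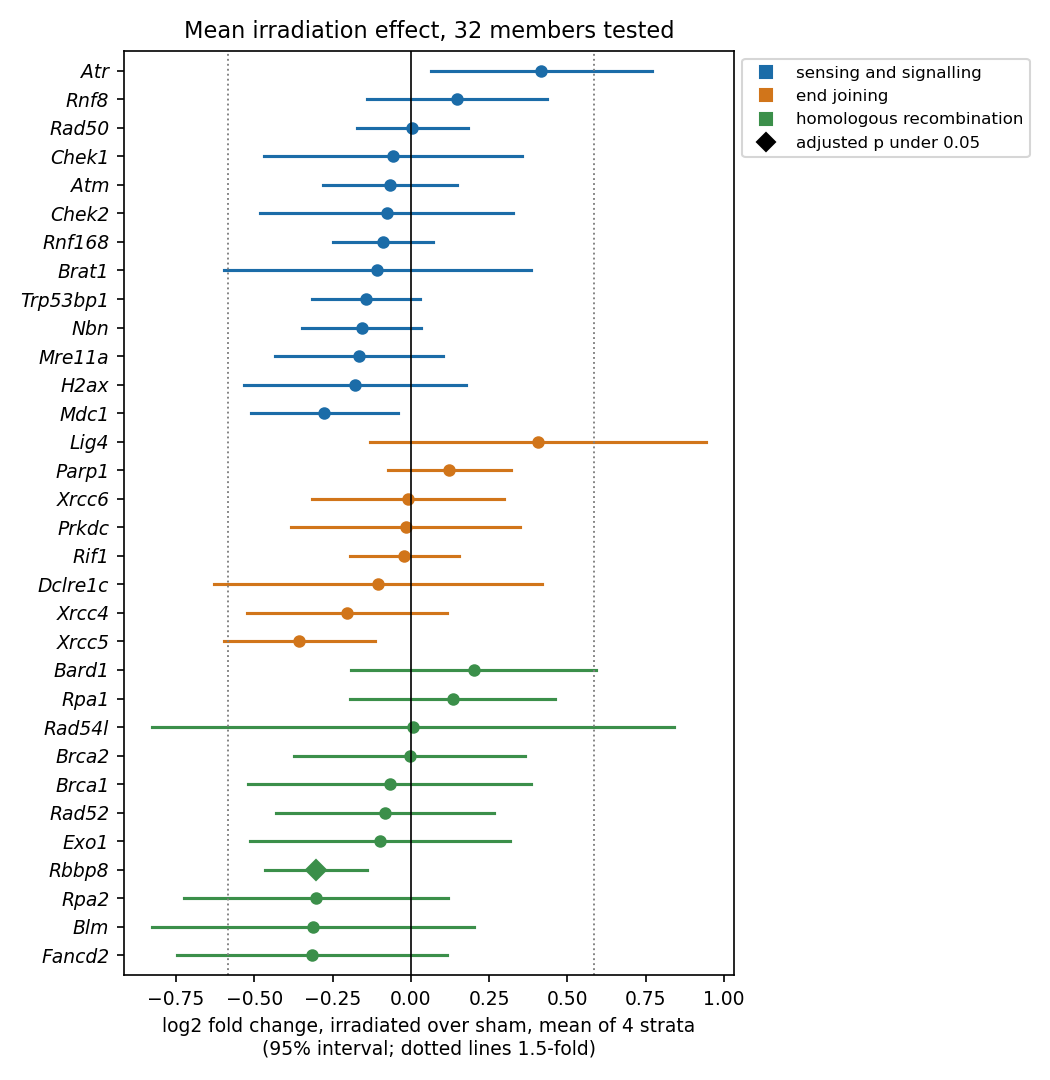
Mean log2 fold change of IR over sham across the 4 pairs of groups (points) with 95% intervals (lines), by class; dotted lines mark 1.5-fold and the diamond marks the gene called. Rbbp8 is at -0.30, Xrcc5 at -0.36 and Atr at 0.42, and 28 of the 32 intervals span 0.

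Rbbp8, which starts the cutting back of break ends, was the one repair gene that fell in IR organoids by the test. It had 90.9, 74.6 and 104 CPM in IR against 130, 95.4 and 104 CPM in sham organoids at day 14, passage 1, and 128, 135 and 115 CPM in IR against 131, 133 and 130 CPM in sham at day 14, passage 2. At day 90 it had 88.7, 97.8 and 68.9 CPM in IR against 125, 112 and 105 CPM in sham at passage 1, and 101, 74.0 and 91.7 CPM in IR against 126, 114 and 126 CPM in sham at passage 2. The groups overlapped at day 14 in both passages, and at day 90 every IR library lay below every sham library in both passages. Markers of other cells of the gland also differed between these libraries. The summed level of 8 acinar markers, mostly the secretory gene Pip except in IR day 90 passage 1 replicate 3, was 34.1 to 193 CPM in IR against 280 to 334 CPM in sham at day 90, passage 1, and 151 to 267 CPM in IR against 305 to 1224 CPM in sham at day 90, passage 2, and the groups overlapped at day 14. That of 4 myoepithelial markers, mostly Mylk and Acta2, was 3.78 to 8.44 CPM in IR against 22.7 to 34.4 CPM in sham at day 14, passage 1, 1.99 to 9.78 CPM in IR against 13.6 to 17.2 CPM in sham at day 14, passage 2, and 3.97 to 5.67 CPM in IR against 6.77 to 10.9 CPM in sham at day 90, passage 1, with overlap at day 90, passage 2. In the mean effect 2 of 4 tested acinar and 1 of 2 tested myoepithelial markers were called lower in IR by edgeR, against 4.91% of all tested genes. Pip and Aqp5, the acinar water channel, had counts in all 24 libraries, while the other 6 acinar markers were at 0 in 5 or more libraries and Cnn1 and Myh11 in over 14. Immune markers went the other way at day 14. Their sum was 17.8 to 50.5 CPM in IR against 8.10 to 9.89 CPM in sham at passage 1. At passage 2 it was 1.45 to 5.97 CPM in IR against 0.861 to 1.18 CPM in sham, and the groups overlapped at day 90. The epithelial sum was lower in IR at day 14, passage 2 (6208 to 8051 CPM against 9506 to 10549 CPM in sham) and overlapped in the other pairs. This sum is weighted to the most abundant genes, led by Krt14 and Krt5 (medians of 3017 and 1622 CPM over all libraries). The mean log2 CPM of the tested epithelial markers overlapped at day 14, passage 2, at 7.57 to 8.18 in IR against 7.87 to 7.94 in sham. The part of any of these cells in the Rbbp8 difference was not tested.

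For Rbbp8 the mean log2 fold change was -0.30 (SE 0.08, 95% interval -0.47 to -0.14), an IR level 0.811 times that of sham, with an adjusted p of 0.0161 by edgeR. This call held under every alternative run for it, with log2 fold changes of -0.33 to -0.27 and adjusted p-values of 0.00753 to 0.0344 when each library was left out in turn, and adjusted p-values of 0.00342 to 0.0355 under the others. At day 90 alone the log2 fold changes were -0.42 (SE 0.16, adjusted p = 0.266) at passage 1 and -0.45 (SE 0.16, adjusted p = 0.10) at passage 2, and neither was called by edgeR. Without IR day 90 passage 2 replicate 1 the second was called, at -0.56 with an adjusted p of 0.0401. Without that library IR and sham did not overlap in Gm42418 share at day 90, passage 2. With the share as a covariate the mean effect on Rbbp8 was -0.32 (adjusted p = 0.0328, edgeR). Neither the interaction of irradiation with day nor that with passage was called for Rbbp8, so no difference in its response between days or passages was shown.

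Xrcc5, the larger Ku subunit, which binds break ends for direct joining, lay next to the threshold. It had 35.6, 52.9 and 49.2 CPM in IR against 48.6, 45.4 and 54.9 CPM in sham organoids at day 14, passage 1, and 67.7, 67.0 and 46.0 CPM in IR against 84.7, 69.1 and 73.2 CPM in sham at day 14, passage 2. At day 90 it had 55.7, 48.2 and 40.4 CPM in IR against 53.6, 64.4 and 66.0 CPM in sham at passage 1, and 67.9, 33 and 32.4 CPM in IR against 71.9, 63.2 and 69.9 CPM in sham at passage 2. The groups separated only at day 14, passage 2; at day 90, passage 2, a single IR library reached the sham range while the others lay at about the level of 33 CPM. The mean log2 fold change was -0.36 (SE 0.12, 95% interval -0.60 to -0.11; adjusted p = 0.0516 by edgeR), not called. Adjusted p ranged from 0.000827 without the 3 libraries of deviating Gm42418 share to 0.155 with that share as a covariate. The first of these fits cannot separate the share from irradiation at day 90. Leaving out sham day 90 passage 1 replicate 1, IR day 90 passage 1 replicate 1 or IR day 90 passage 2 replicate 1 brought it to 0.0492, 0.0433 and 0.00142, the last with -0.47 on the log2 scale. The other Ku subunit, Xrcc6, was at group means of 7.58 to 14.0 CPM. Its mean IR over sham interval ran from -0.31 to 0.30.

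**Figure D4:**
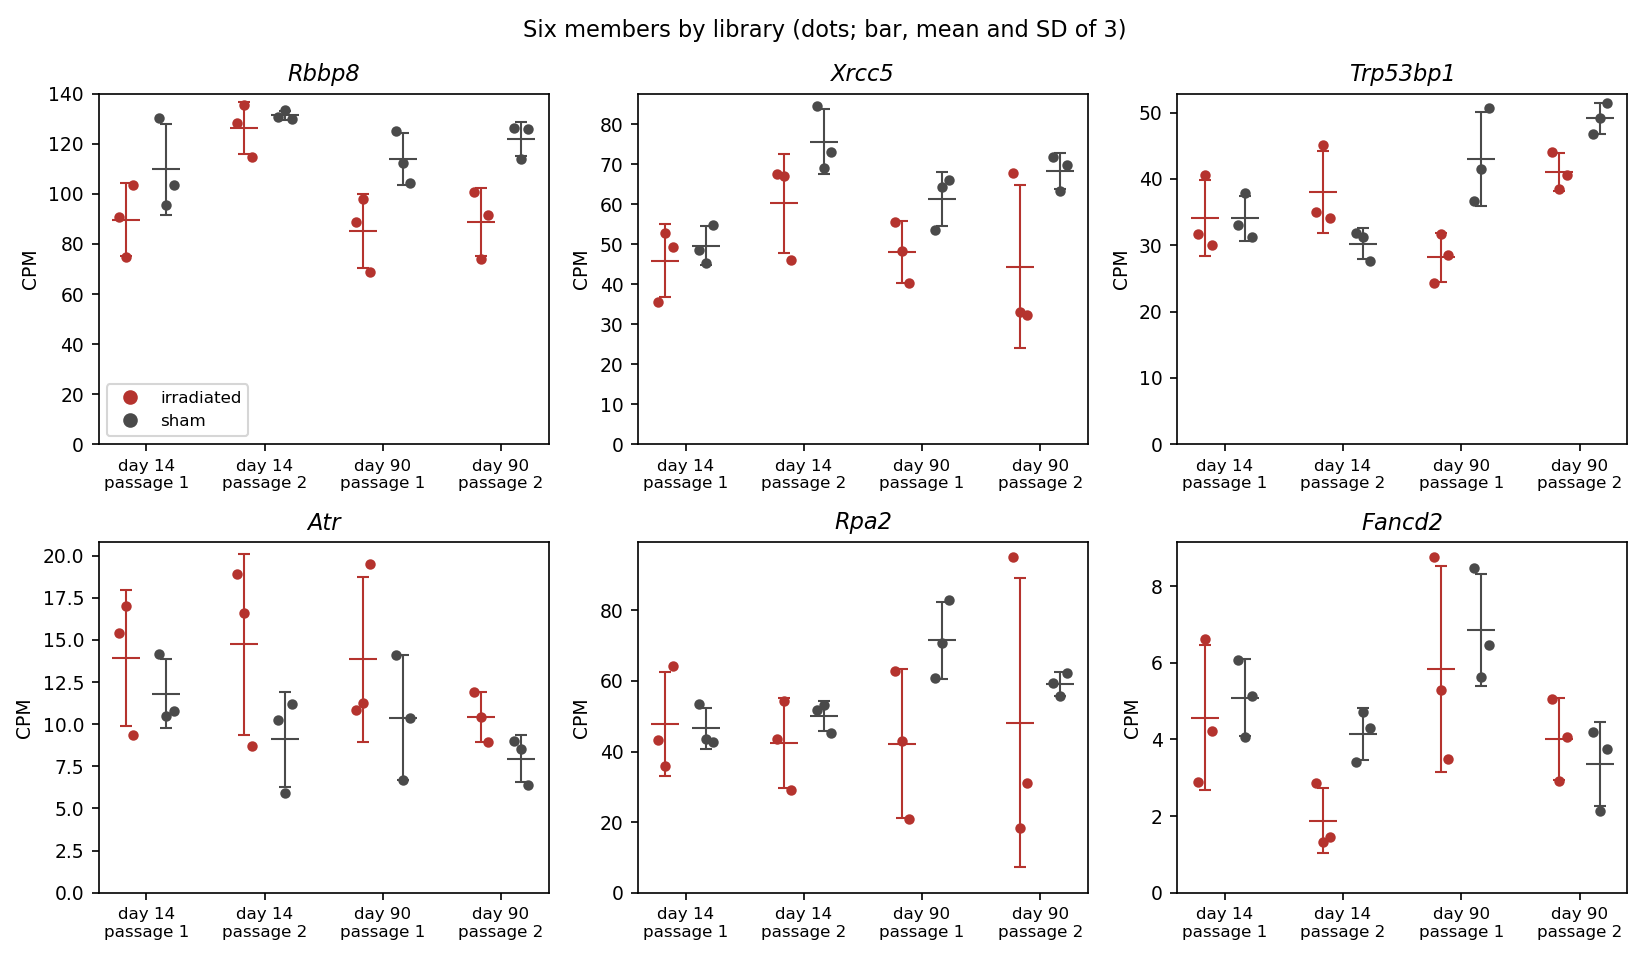
Level in CPM of Rbbp8, Xrcc5, Trp53bp1, Atr, Rpa2 and Fancd2 in each of the 24 libraries (dots), IR in red left of sham in grey, with the mean and SD of 3 libraries. For Rbbp8 the IR libraries at day 90 lie between 68.9 and 101 CPM and the sham libraries between 105 and 126 CPM, and for Rpa2 the IR libraries of day 90, passage 2 span 18.4 to 94.9 CPM.

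Among the sensing genes, Trp53bp1, a chromatin protein that favours end joining, had the smallest p for variation over the 8 groups (adjusted p = 0.0136 by edgeR's F test). Rbbp8 was the other of 2 repair genes called by that test (adjusted p = 0.0219), which called 15% of all tested genes; 6 of 32 had an unadjusted p under 0.05, against 29.9% of all genes. At day 90, passage 1, Trp53bp1 had 24.2, 31.7 and 28.5 CPM in IR against 36.7, 41.5 and 50.7 CPM in sham organoids, with no overlap. At day 90, passage 2, it had 44.1, 38.4 and 40.6 CPM in IR against 46.7, 49.2 and 51.5 CPM in sham, again with every IR library lower. At day 14, passage 2, the order was the other way, with 35.0, 45.1 and 34 CPM in IR against 31.8, 31.3 and 27.6 CPM in sham, and at day 14, passage 1, the values overlapped at 31.7, 40.6 and 30.0 CPM in IR and 33.1, 37.8 and 31.3 CPM in sham. The log2 fold changes were -0.62 (SE 0.17, adjusted p = 0.127) and -0.26 (SE 0.16, adjusted p = 0.420) at day 90, passages 1 and 2, and 0.33 (SE 0.17, adjusted p = 0.760) at day 14, passage 2, by edgeR. The interaction of irradiation with day was -0.61 (SE 0.24, adjusted p = 0.491) in passage 1 and -0.58 (SE 0.23, adjusted p = 0.859) in passage 2, so a different response at the 2 days was not shown. The difference between day 90 and day 14 in sham organoids of passage 2 was 0.70 (SE 0.16), with an adjusted p of 0.0572, all 3 day 90 libraries lying higher. With the Gm42418 share as a covariate the difference among the 8 groups was no longer called for Trp53bp1 (adjusted p = 0.359). At day 90 most IR libraries had a higher share than most sham libraries. The day 90 differences of Trp53bp1 thus cannot be fully separated from that share.

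Atr, the kinase that responds to single-stranded DNA, had the largest positive mean difference of the 32 genes, which was not called. It had 15.4, 17 and 9.38 CPM in IR and 14.2, 10.5 and 10.8 CPM in sham organoids at day 14, passage 1, and 18.9, 16.6 and 8.69 CPM in IR and 10.2, 5.91 and 11.2 CPM in sham at day 14, passage 2. At day 90 it had 10.8, 11.2 and 19.5 CPM in IR and 14.1, 6.69 and 10.3 CPM in sham at passage 1, and 11.9, 10.4 and 8.92 CPM in IR and 8.99, 8.51 and 6.38 CPM in sham at passage 2. The groups overlapped in all 4 pairs. The mean log2 fold change was 0.42 (SE 0.17, adjusted p = 0.120 by edgeR), and without IR day 14 passage 2 replicate 3 it was 0.49 with an adjusted p of 0.0450. Its partner kinase Atm was nearly level, with group means of 60.7 to 76.4 CPM and a mean IR over sham interval of -0.28 to 0.15.

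Mdc1, the scaffold that binds marked H2ax, had 24.7, 26.5 and 17.4 CPM in IR against 29.0, 43.1 and 28.4 CPM in sham organoids at day 14, passage 2, with no overlap. The log2 fold change there was -0.57 (SE 0.23, adjusted p = 0.680 by edgeR), and the mean over the 4 pairs was -0.28 (SE 0.11, adjusted p = 0.122). H2ax itself, the histone marked at breaks, ranged from a group mean of 45.7 ± 11.5 CPM in IR at day 90, passage 2, to 84.4 ± 19.9 CPM in sham at day 14, passage 2 (SD, n = 3 each). Its libraries differed as much within a group as between groups, from 30.6 to 99.0 CPM in IR at day 90, passage 1. Rad50 stayed between group means of 142 and 176 CPM, and its partner Nbn between 24.8 and 35.9 CPM. The mean IR over sham interval of Rad50 ran from -0.17 to 0.18.

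In end joining, Rif1, which works with Trp53bp1 to hold back end resection, had group means of 129 to 161 CPM and a mean IR over sham interval of -0.19 to 0.15. Parp1, which binds broken strands and makes poly(ADP-ribose), had 37.8, 34.3 and 31.6 CPM in IR against 28.8, 29.8 and 29.3 CPM in sham organoids at day 90, passage 2, all IR libraries lying higher. Its mean log2 fold change was 0.12 (SE 0.09, adjusted p = 0.444 by edgeR). Prkdc, the kinase that Ku recruits, had group means of 8.54 to 15.3 CPM. Of the ligase pair, Lig4 was at 0.41 (SE 0.26, adjusted p = 0.346) in the mean effect and Xrcc4 at -0.20 (SE 0.15, adjusted p = 0.437). Lig4 varied most within groups of the 32 genes, with a coefficient of variation of 56.5%, and a single IR library of day 90, passage 1, stood at 21.6 CPM where the other two had 7.22 and 5.95 CPM.

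In homologous recombination, Fancd2, a crosslink repair protein that also guards stalled forks, had 2.87, 1.33 and 1.45 CPM in IR against 3.41, 4.72 and 4.31 CPM in sham organoids at day 14, passage 2. The groups did not overlap, and the log2 fold change was -1.14 (SE 0.47, adjusted p = 0.680 by edgeR), the largest among the 32 tested genes in the 4 pairs, at a level of few counts. Over the 4 pairs the mean was -0.32 (SE 0.21, adjusted p = 0.360). Rpa2, a subunit of the protein that coats single strands, had 94.9, 18.4 and 31.2 CPM in IR against 59.3, 55.6 and 62.3 CPM in sham at day 90, passage 2, and 62.9, 43.0 and 20.9 CPM in IR against 60.9, 70.8 and 82.8 CPM in sham at day 90, passage 1. The groups overlapped in both pairs, and the IR libraries spread more widely than the sham ones. The mean log2 fold change of Rpa2 was -0.30 (SE 0.20, adjusted p = 0.369), and without IR day 90 passage 2 replicate 1 it was -0.55 with an adjusted p of 0.0158. Blm, a helicase of recombination intermediates, was at -0.31 in the mean effect (SE 0.25, adjusted p = 0.461).

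The other recombination genes showed no called difference and wide intervals. Brca1 had group means of 6.89 to 12.9 CPM, with a mean IR over sham interval of -0.52 to 0.39. Brca2, which loads the strand-exchange protein, had group means of 14.8 to 26.8 CPM and an interval of -0.37 to 0.37. Rad54l, a motor protein of strand exchange, had group means of 2.27 to 7.74 CPM and the widest interval among the 32 genes, -0.83 to 0.84. Rpa1, the large subunit of the single-strand binding protein, was at 34.2 ± 8.49 CPM in IR at day 14, passage 1, its highest group, and at 16.1 ± 3.21 CPM in sham at day 90, passage 2, its lowest (SD, n = 3 each).

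Passage and day were compared within each treatment. None of the 32 genes was called between passage 2 and passage 1 in IR or sham organoids at either day, where 1.38% and 0% of all genes were called in IR (day 14 and day 90) and 1.18% and 1.36% in sham. At an unadjusted p under 0.05 there were 3, 4, 2 and 6 of the 32 genes in that order (14.1%, 10.1%, 11.4% and 14% of all genes). At day 90, passage 2 against passage 1, the medians of the 32 genes were -0.26 in IR and -0.14 in sham on the log2 scale, against 0.00 and -0.02 over all genes. In the sham pair, 8 of 32 genes (25%) had all passage 2 libraries below all passage 1 libraries, against 11.9% of all genes, and 0 (0%) had them all above, against 8.99%. In the IR pair of the same day it was 0 of 32 below (0%, against 6.92% of all genes) and 2 above (6.25%, against 7.91%). Of the proliferation lists, 0 of 31 S-phase genes and 0 of 30 G2 and M genes were called in the sham pair. At an unadjusted p under 0.05, 13 of the 31 and 25 of the 30 had a lower fitted value at passage 2 there, against 8.05% of all genes. The part of proliferation in the repair genes' medians was not tested. Between day 90 and day 14 again none of the 32 was called, with 0.17% and 0.435% of all genes called in IR (passage 1 and passage 2) and 0% and 0.426% in sham, and 1, 4, 3 and 5 of the 32 genes at an unadjusted p under 0.05 (6.82%, 13.5%, 9.7% and 13.7% of all genes). None was called in the 4 interactions (0.0189%, 0.00947%, 0% and 0% of all genes, for day in passages 1 and 2 and then passage at days 14 and 90), with 3, 2, 0 and 1 at an unadjusted p under 0.05 (8.11%, 5.14%, 6.9% and 3.85% of all genes).

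Libraries of one group differed in their level of S-phase genes, and most repair genes had a positive correlation with it, although no single relation passed adjustment and several values rest on 2 libraries. The S-phase score is the mean log2 CPM of 31 replication genes, none of them among the 40. In IR at day 90, passage 2, it was 4.58, 3.2 and 3.77, and the first of these is the library with 94.9 CPM of Rpa2 and 67.9 CPM of Xrcc5. In IR at day 90, passage 1, it was 4.93, 4.65 and 4.03, and the last has 20.9 CPM of Rpa2 and 30.6 CPM of H2ax. Between IR and sham the score genes were not called in any pair or in the mean effect (0 of 31, and 0 of 30 for G2 and M genes). As deviations from the group mean over the 12 libraries of a passage, 24 of 32 repair genes correlated positively with the score at passage 1 (median r 0.48) and 27 of 32 at passage 2 (median r 0.57). Over all 10563 tested genes 51.0% and 50.4% were positive, with median r 0.01 and 0.01. By class the median r was 0.44 in sensing, 0.45 in end joining and 0.67 in recombination at passage 1, and 0.52, 0.60 and 0.68 at passage 2. Without the 2 libraries farthest in score in each passage these medians were 0.13, 0.22 and 0.50 at passage 1, and 0.37, 0.71 and 0.52 at passage 2, so those of sensing and end joining at passage 1 rest on them. The median over the 32 genes was then 0.31 with 26 positive at passage 1, and 0.54 with 25 positive at passage 2. At passage 2 the sign turned for the checkpoint kinases Chek1 (r = 0.55, against -0.25 without the 2 libraries) and Chek2 (0.67 against -0.48), for Bard1 (0.68 against -0.15) and for Dclre1c (-0.11 against 0.24), and at passage 1 for Atr (-0.31 against 0.03) and Xrcc4 (-0.02 against 0.15).

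In all, 130 relations were tested, which include those of the same genes, and of the S-phase score itself, with the Gm42418 share. None passed Benjamini-Hochberg adjustment, where the smallest p that the 1296 arrangements within groups allow is 0.000772. At an unadjusted p under 0.05 there were 7 of 32 genes at passage 1 and 12 of 32 at passage 2 (two-sided exact permutation test within groups). The share of all genes at that p was not computed, so these counts have no background. By size, r was over 0.5 for 43.8% and 62.5% of the 32 genes at passages 1 and 2, against 15.8% and 20.4% of all tested genes. Brca2 had r = 0.74 (rho = 0.70, exact permutation p = 0.00772 and 0.0201, adjusted 0.158 and 0.216) at passage 1 and r = 0.91 (rho = 0.92, p = 0.00154 and 0.00463, adjusted 0.125 and 0.160) at passage 2; without the 2 libraries farthest in score r was 0.75 and 0.93. H2ax had r = 0.81 (rho = 0.82, exact permutation p = 0.00849 and 0.0139, adjusted 0.158 and 0.216) and r = 0.72 (rho = 0.76, p = 0.00231 and 0.00309, adjusted 0.125 and 0.160), and 0.66 and 0.82 without those libraries. Xrcc6 had r = 0.95 at passage 2 (rho = 0.96, exact permutation p = 0.00309 and 0.00617, adjusted 0.125 and 0.160; 0.96 without the 2 libraries) and r = 0.56 at passage 1 (rho = 0.55, exact permutation p = 0.0995 and 0.133, adjusted 0.441 and 0.537; 0.39 without the 2 libraries). Artemis, Dclre1c, went the other way at passage 1, with r = -0.67 (rho = -0.76, exact permutation p = 0.00540 for both, adjusted 0.140 and 0.160; -0.69 without the 2 libraries), and was at r = -0.11 at passage 2. For Rbbp8 r was 0.53 at passage 1 and 0.79 at passage 2 (rho = 0.49 and 0.64, exact permutation p = 0.173 and 0.191, and 0.0448 and 0.0864, adjusted 0.518 and 0.592, and 0.291 and 0.440), and 0.44 and 0.42 without the 2 libraries, so the passage 2 value rests on them. A separate proliferation score, the mean log2 CPM of the S-phase genes and the G2 and M genes together, served as a covariate. With it the mean irradiation effect on Rbbp8 was -0.28 (adjusted p = 0.0114) and on Xrcc5 -0.33 (adjusted p = 0.0125) by edgeR. The S-phase score alone was not used as a covariate.

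**Figure D5:**
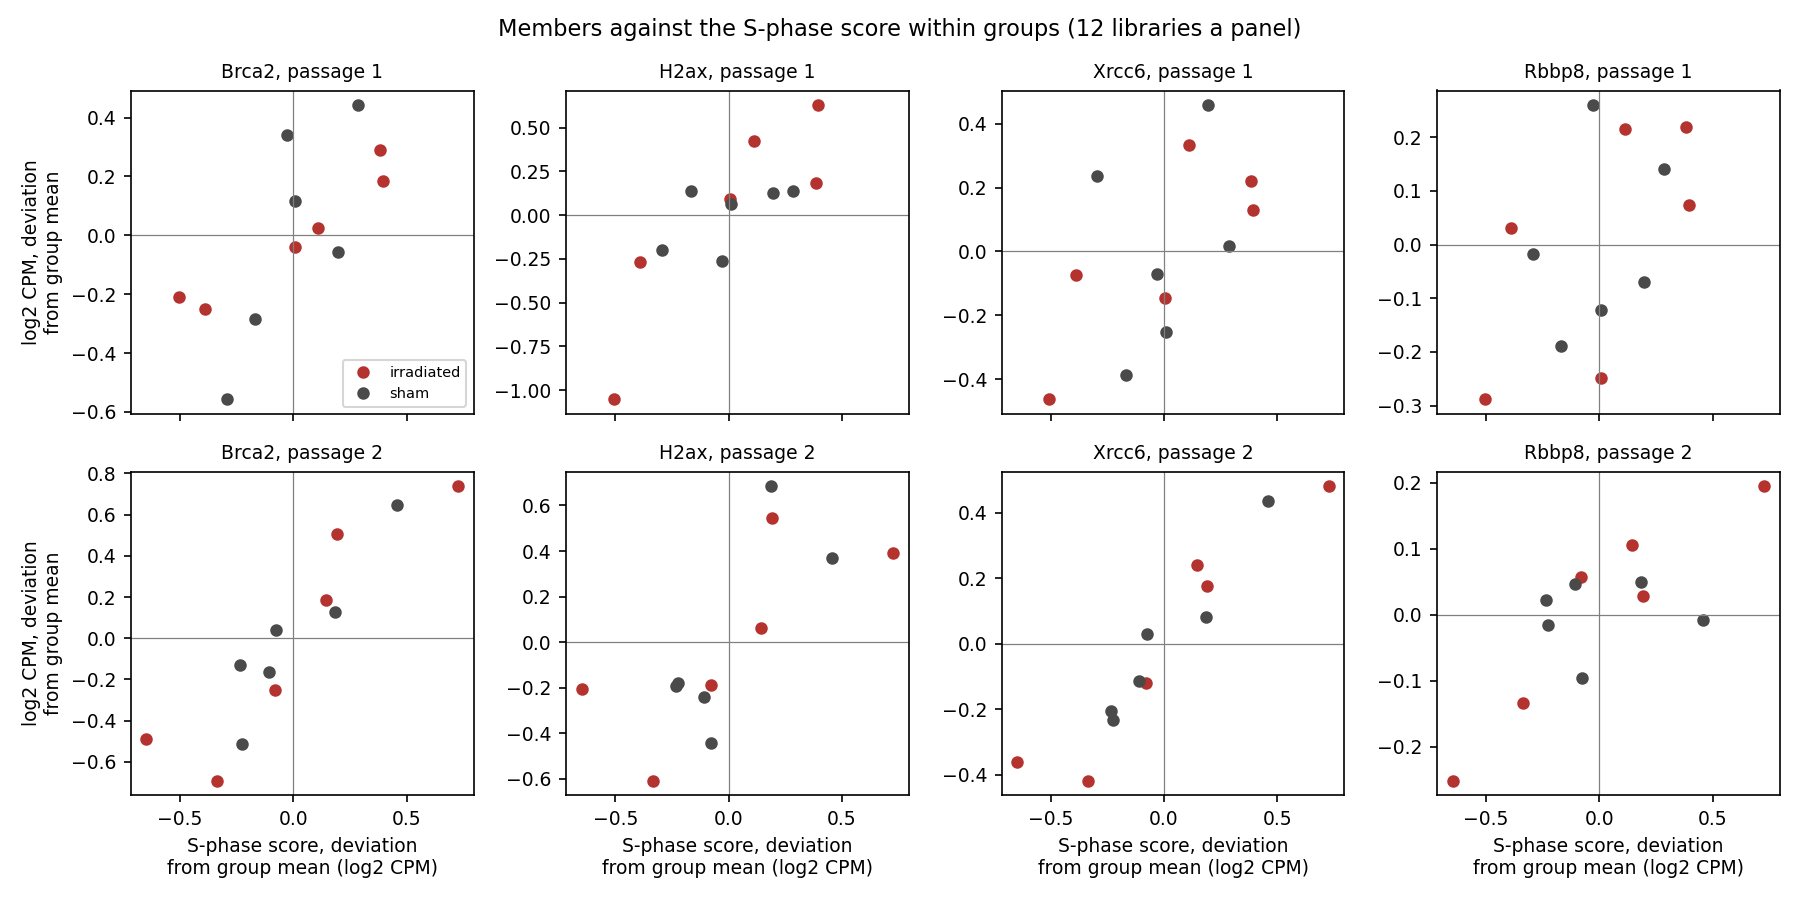
Deviation of Brca2, H2ax, Xrcc6 and Rbbp8 from their group means (log2 CPM) against the deviation of the S-phase score, in the 12 libraries of passage 1 (top) and passage 2 (bottom), IR in red and sham in grey. Libraries with a higher score mostly had more Brca2, H2ax and Xrcc6 (r = 0.91 for Brca2 and 0.95 for Xrcc6 at passage 2), and Rbbp8 spans a narrower range.

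The promoters of the repair genes were searched for 3 motifs known from cell-cycle promoters, on both strands. These were the E2F type (TTTGGCGC, TTTCGCGC, TTTCCCGC or TTTGCCGC), the CHR (TTTGAA) and the CCAAT box (CCAAT). A window of 300 bases, 250 before to 50 after the RefSeq start (build GRCm38.p6), was found for 31 of the 40 genes. An E2F-type motif was in 6 of these (19.4%), namely Mdc1, Chek2, Xrcc6, Brca2, Bard1 and Rad51c, against 4.50% of the promoters of tested genes and 2.32% of all 27025 promoters. The CCAAT box was in 17 (54.8%), against 38.8% and 37.9%, and the CHR in 3 (9.68%), against 11.6% and 18.1%. A match is a run of letters and not a shown site, and no match says only that the letters are not in the window. The 4 windows below belong to the genes with a motif that varied most over the 8 groups by the F test, with the motifs in capitals. Bard1, the partner of Brca1, is on the minus strand at chr1:71102923-71103222 and holds a CHR and an E2F-type motif. Xrcc5 is on the plus strand at chr1:72307171-72307470, Rpa1 on the minus strand at chr11:75348334-75348633 and Rad54l on the minus strand at chr4:116123641-116123940, and these hold CCAAT boxes, in Xrcc5 as the reverse complement ATTGG.
Bard1: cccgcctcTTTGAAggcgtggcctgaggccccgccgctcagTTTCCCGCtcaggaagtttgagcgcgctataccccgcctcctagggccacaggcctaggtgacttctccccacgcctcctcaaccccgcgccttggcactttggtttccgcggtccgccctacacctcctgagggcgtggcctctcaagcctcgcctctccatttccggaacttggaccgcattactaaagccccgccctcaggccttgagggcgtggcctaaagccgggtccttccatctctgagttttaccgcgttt
Xrcc5: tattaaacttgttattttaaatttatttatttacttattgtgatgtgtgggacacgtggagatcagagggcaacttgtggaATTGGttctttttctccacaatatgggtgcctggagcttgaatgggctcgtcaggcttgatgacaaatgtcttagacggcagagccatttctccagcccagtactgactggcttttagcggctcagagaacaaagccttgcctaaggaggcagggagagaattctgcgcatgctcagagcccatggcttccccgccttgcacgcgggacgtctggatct
Rpa1: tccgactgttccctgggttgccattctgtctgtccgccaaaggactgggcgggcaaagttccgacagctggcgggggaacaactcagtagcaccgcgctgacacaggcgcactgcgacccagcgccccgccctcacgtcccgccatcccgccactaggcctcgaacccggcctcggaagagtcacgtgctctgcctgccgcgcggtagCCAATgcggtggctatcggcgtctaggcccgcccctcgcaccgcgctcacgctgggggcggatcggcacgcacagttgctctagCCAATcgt
Rad54l: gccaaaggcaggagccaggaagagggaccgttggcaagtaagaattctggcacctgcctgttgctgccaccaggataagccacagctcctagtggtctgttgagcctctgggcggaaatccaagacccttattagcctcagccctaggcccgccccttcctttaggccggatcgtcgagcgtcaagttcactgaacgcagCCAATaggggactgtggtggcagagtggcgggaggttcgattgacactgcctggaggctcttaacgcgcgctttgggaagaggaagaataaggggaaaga

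Wider repair and stress lists, chosen apart from the 40 genes, gave the setting. Of 61 tested further DNA repair genes (further recombination, Fanconi anaemia, checkpoint clamp, single-strand break and end-joining factors) 0 were called in the mean irradiation effect, against 11% of all genes, or in any of the 4 pairs by edgeR. In the mean effect 10 (16.4%) had an unadjusted p under 0.05, against 25.9% of all genes, and their median log2 fold change was -0.09. The smallest p in the mean effect belonged to Polm, an end-joining polymerase, at 0.89 (SE 0.30, adjusted p = 0.0550), and Fancc, of the Fanconi anaemia core complex, at 0.46 (SE 0.15, adjusted p = 0.0600). Of 28 p53 target genes, 2 rose (Mdm2 and Ak1) and 2 fell (Trp73 and Sesn1) in the mean effect, 14.3% of the list against 11% of all genes called, and the median was 0.07. Mdm2, the p53 ubiquitin ligase, rose in IR, at 0.54 on the log2 scale (SE 0.12, edgeR adjusted p = 0.00525), and Trp73, a p53 relative, fell, at -1.32 (SE 0.26, adjusted p = 0.00236). Cdkn1a, the cell-cycle inhibitor p21, had 0.94 (SE 0.27, adjusted p = 0.145) at day 14, passage 1. Bst2 and Parp9 led the interferon genes, at -1.73 and -1.28 in the mean effect.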

How the data were processed

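Whole-read counts per gene were deposited by the authors, 1 file a library, with Ensembl mouse identifiers and no normalization. Per the labels, RNA came from spin columns with DNase treatment and was made into QuantSeq 3' libraries. In the submitters' processing notes bcl2fastq and the build GRCm39 are named; no source used here gives the aligner, counting tool, annotation or strand setting, so overlapping and antisense genes cannot be told apart. Each file has 5 lines naming no gene, which stayed out; reads on no gene came to 11.5% to 26.5% and ambiguous reads to 0.259% to 0.451%. Symbols were matched by identifier for 47224 of 47643 genes.

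The 40 genes and all lists were chosen with earlier results of these data known. All 24 libraries entered one model with a mean for each of 8 groups in edgeR 4.0.16 (R 4.3.3): TMM factors, filterByExpr (10563 genes), quasi-likelihood tests, two-sided, Benjamini-Hochberg over all tested genes, called at 0.05. The SE is the log2 fold change over the root of F. Interactions and the mean of the 4 irradiation effects were contrasts of that model. The fit was tested on simulated data. Scores used log2 CPM after adding 0.5 counts; correlations were permuted within groups (Python 3.11.15). Promoters came from RefSeq, build GRCm38.p6; of several windows the first was used. Genes given with values are those called, the 4 of smallest p in the mean effect and the 3 highest in each class, and Atm, H2ax, Trp53bp1, Prkdc, Xrcc6, Brca1, Brca2 and Rad54l; Brat1, Dclre1c, Chek2 and others named beside a count were chosen after their values were seen. Each result was refitted with no filter, a stricter filter (5 CPM in 3 libraries), a replicate block, the Gm42418 share or a proliferation score as covariate, only the compared groups, DESeq2 1.42.0, median-of-ratios factors, and leaving out each library; leaving out 3 libraries together was chosen after seeing the data.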

Additional observations from a re-analysis of the deposited data

How the results depend on the processing

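Counts of repair genes called were the same as reported, or within 1.5-fold of it, in 295 of 328 alternative fits over 18 comparisons. Except for the mean effect and the F test over the 8 groups, the reported count was 0. Few genes of any kind were called in most of those comparisons, so a count that stayed at 0 was likely beforehand. The count moved in 11 of 32 fits of the mean effect and in 5 of 32 of the F test. None of 1093 refitted values of named genes was marked as reversed. These values were picked by small p: the 4 smallest of each class in the mean effect, those with an unadjusted p under 0.05 elsewhere, and the called F tests. A kept sign was thus likely beforehand, and F tests have no sign. The mean effects of Atm, Rad50, Rif1, Xrcc6, Brca1, Brca2 and Rad54l were not among them. For the mean irradiation effect, where 1 gene was called, DESeq2, median-of-ratios factors, no filter, the stricter filter, the replicate block and the proliferation covariate each gave 2 (Xrcc5 with Rbbp8). Over all genes these fits called 1169 (stricter filter) to 1642 (no filter, of 22785), against 1162 of 10563 as reported. Leaving out a library gave 1 to 3 repair genes, with 846 to 1774 called over all genes. Leaving out the 3 libraries of deviating Gm42418 share gave 4, with 1894 of 10761 called over all genes. This fit also left IR and sham at day 90 without overlap in that share, so it cannot separate the share from irradiation there. With the Gm42418 share as a covariate Rbbp8 alone was called and the count over all genes was 532. For IR against sham at day 90, passage 2, where 0 were called, DESeq2 gave 1 (Rbbp8), the proliferation covariate 1 (Xrcc5), leaving out a library 0 to 3 and leaving out the 3 libraries 3. Over all genes DESeq2 called 628 and the proliferation covariate 670 of 10563. The fits with 3 repair genes called 1194 of 10822 and 1461 of 10761, against 520 of 10563 as reported. At day 90, passage 1, no filter gave 1 (Rpa2) and leaving out the 3 libraries 1 (Trp53bp1). Over all genes these fits called 465 of 22785 and 168 of 10761. For any difference among the 8 groups, where 2 were called, no filter gave 8, the Gm42418 covariate 1, the proliferation covariate 4, leaving out a library 2 to 5 and leaving out the 3 libraries 5. Over all genes no filter called 3109 of 22785, the Gm42418 covariate 1018 and the proliferation covariate 1904 of 10563. The fits with 5 repair genes called 2166 of 10822 and 2613 of 10761, against 1586 of 10563 as reported. For passage 2 against passage 1, no filter gave 1 in IR and 2 in sham at day 90, and the proliferation covariate and leaving out the 3 libraries each gave 1 in sham at day 14. Over all genes these fits called 369 of 22785, 704 of 22785, 237 of 10563 and 255 of 10761, in that order. For day 90 against day 14 at passage 2, DESeq2, median-of-ratios factors, no filter, the stricter filter and leaving out the 3 libraries each gave 1 in sham, and in IR leaving out a library gave 0 to 1 and leaving out the 3 libraries 1. Over all genes the sham fits called 117, 52, 427, 53 and 204, in that order. The IR fits with 1 repair gene called 372 of 10822 and 308 of 10761. The highest counts on leaving out a library came without IR day 90 passage 2 replicate 1; the cause was not tested. In the other comparisons the count stayed at 0 when each library was left out.

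Replicate numbers matched the libraries only in part. In none of 12 comparisons was every correlation of same-numbered deviations over 0.1 (lowest -0.289, highest 0.388). In none did every library match its own number best. Between the passages of sham organoids at day 90, replicates 1 and 2 matched their own number best (0.379 and 0.265). Replicate 3 did not (-0.145). Whether same-numbered libraries share an animal or a culture is not given in the labels and was not tested. With the replicate block Xrcc5 had a mean effect of -0.37 (adjusted p = 0.0442, edgeR). Depth limits the 8 untested genes and those near 4 CPM, where counting error alone is over 30%.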
